A study of Homo sapiens with 6 samples.

Results

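Complement genes of the classical and alternative pathways were followed in human uveal melanoma cells grown alone or with activated T cells. The genes were C1R, C1S, C1RL, C2, C3, CFB and CFD. They were found as every probe set whose array annotation carries one of these symbols, which gave 11 probe sets for the 7 genes, against 18417 genes with a probe set of their own on the array. C2 and CFB had 3 probe sets each and the other 5 genes 1 each, and none of the 11 listed a further symbol. The lines were 92.1, Mel 270 and Mel 290, all from melanoma of the choroid, the vascular layer of the eye. The number of melanoma cells plated was 80000 for 92.1 and 100000 for Mel 270 and Mel 290. Differences of 92.1 from the other lines therefore cannot be told apart from plating. All 6 cultures spent 64 h in serum-free medium. In 3 of them 1500000 T cells per well sat above the melanoma cells in a membrane insert, activated with beads against CD3 and CD28. The T cells came from healthy volunteers, in a number not given in the sources used here, and 1 array was made per line and condition, so n = 3 lines per group. Nothing in the labels describes repeat cultures, so every test measures the spread between lines.

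Complement is a cascade of plasma proteins that marks cells and microbes for removal. In the classical pathway C1q binds a target, C1r then activates C1s, and C1s cleaves C4 and C2 to build the enzyme that splits C3, the protein on which all pathways meet. In the alternative pathway factor D, encoded by CFD, cleaves factor B, encoded by CFB, once it is bound to C3b. The liver makes most of the plasma pool, and many other cell types make components locally, in which interferon-gamma and other inflammatory cytokines are known inducers of C1R, C1S, C2, C3 and CFB.

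The genes lie in groups on the genome. In RefSeq (GRCh38.p14) C1S, C1R and C1RL are consecutive protein-coding genes on chromosome 12. C2 and CFB lie on chromosome 6 with ZBTB12 between their starts, and C3 and CFD lie apart on chromosome 19. The RefSeq promoter table held a start for 5 of the 7 genes. The 250 bases before the start are shown for CFB, C1R and C1RL, whose signals were all higher in co-culture, and for CFD, whose signal was not. They run 5′ to 3′ on the gene's strand (GRCh38.p14, chr6:31945845-31946094 on the plus strand for CFB, chr12:7092446-7092695 on the minus strand for the outer start of C1R, chr12:7109215-7109464 on the minus strand for C1RL, chr19:859414-859663 on the plus strand for CFD), and capitals mark the matches to the motifs named after them.
CFB: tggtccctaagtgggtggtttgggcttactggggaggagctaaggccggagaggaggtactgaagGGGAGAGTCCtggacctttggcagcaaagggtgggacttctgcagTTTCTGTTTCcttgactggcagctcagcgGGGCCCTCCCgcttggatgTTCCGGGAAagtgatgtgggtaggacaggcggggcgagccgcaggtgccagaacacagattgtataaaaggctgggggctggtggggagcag
C1R: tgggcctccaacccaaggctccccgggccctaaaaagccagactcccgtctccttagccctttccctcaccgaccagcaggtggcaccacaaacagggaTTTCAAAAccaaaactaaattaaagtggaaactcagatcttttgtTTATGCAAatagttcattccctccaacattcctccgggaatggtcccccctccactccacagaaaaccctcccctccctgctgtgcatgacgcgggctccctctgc
C1RL: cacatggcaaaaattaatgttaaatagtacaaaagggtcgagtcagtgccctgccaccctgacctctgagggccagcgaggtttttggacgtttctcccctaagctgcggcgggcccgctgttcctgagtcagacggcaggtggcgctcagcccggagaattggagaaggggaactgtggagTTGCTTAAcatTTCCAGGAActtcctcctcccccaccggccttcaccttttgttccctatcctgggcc
CFD: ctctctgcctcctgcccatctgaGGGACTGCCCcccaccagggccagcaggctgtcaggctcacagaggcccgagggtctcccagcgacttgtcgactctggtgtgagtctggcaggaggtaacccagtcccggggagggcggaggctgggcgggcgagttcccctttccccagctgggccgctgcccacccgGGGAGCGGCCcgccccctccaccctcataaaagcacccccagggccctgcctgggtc

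Both strands were searched for 4 sets of letters. TTCNNNGAA is the GAS element bound by STAT dimers, GAAA followed by any 2 bases and GAAA the core of the interferon-stimulated response element, GGGA followed by any 4 bases and CC a form of the NF-kappaB site and TTNNGNAA a form of the C/EBP site. CFB held a GAS match (TTCCGGGAA, from -92 to -84 relative to the start), a response element match (TTTCTGTTTC, from -140 to -131, on the opposite strand) and 2 NF-kappaB matches. Among 34943 promoters of the same length, 6.56% held a GAS match and 3.02% a response element match, against 22.6% for NF-kappaB and 33.2% for C/EBP. C1RL held a GAS match (TTCCAGGAA, -57 to -49) beside a C/EBP match, and the outer start of C1R held 2 C/EBP matches. A second C1R start, further inside the gene, had 1 GAS, 1 NF-kappaB and 1 C/EBP match, CFD had 2 NF-kappaB matches, and neither start of C2 had any match. None of the marked matches overlapped another. A match describes letters in this window and is not a measured binding site.

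The cells were first checked against their label. Of 8 measured melanocyte markers, MLANA, PMEL, TYR and TYRP1 were high in 92.1 (10.96 to 13.19 alone) and in Mel 270 (11.72 to 13.05 alone). They were near background in Mel 290 (4.79 to 6.10 alone), so these 4 do not bear out the label there. MITF was at 8.96 alone in Mel 290. The remaining markers did not all split the lines this way. Alone, SOX10 was 8.87, 9.21 and 6.84 in 92.1, Mel 270 and Mel 290. In the same order SLC45A2 was 10.02, 6.56 and 6.66, and S100B was 4.71, 9.07 and 4.67. The mean log2 signal over the 8 markers was 10.5, 10.7 and 6.02 in 92.1, Mel 270 and Mel 290 alone and 9.80, 9.34 and 5.76 in co-culture, so it moved down where complement signals were up, and its part in the results was not tested. For 12 T cell markers the mean lay between 5.36 and 5.55 alone and between 5.28 and 5.60 in co-culture. Of these 12, 8 stayed below the filter level, a log2 signal of 5.80, on every array, among them CD3D, CD3E, CD3G, CD2 and PTPRC. The 4 above it on average were CD6, LCK, ZAP70 and GZMB. GZMB was 6.39, 6.78 and 6.48 alone and 6.25, 7.18 and 6.90 in co-culture in 92.1, Mel 270 and Mel 290. Its part in the results was not tested. Over 12 monocyte and macrophage markers the means ran from 5.72 to 5.95 and from 5.65 to 6.18, with LYZ, AIF1 and CD163 below the filter level throughout. CD68, which is not restricted to these cells, was 10.07, 9.33 and 11.09 alone and 10.27, 10.76 and 11.70 in co-culture in 92.1, Mel 270 and Mel 290. FCER1G stayed below the filter level and was 4.35, 4.36 and 4.57 alone and 4.44, 5.46 and 5.58 in co-culture, and the part of either in the results was not tested. Fibroblast markers had means from 5.88 to 6.53 alone and from 5.54 to 6.93 in co-culture (8 genes). Single genes stood above these means. LUM was 6.50, 10.12 and 7.94 alone and 5.00, 9.48 and 10.57 in co-culture in 92.1, Mel 270 and Mel 290. PDGFRB was 9.66 alone and 8.57 in co-culture in Mel 290. BEST1, of the retinal pigment epithelium list, was 8.98, 10.41 and 5.52 alone in 92.1, Mel 270 and Mel 290. Means for retinal pigment epithelium (5 genes) ran from 5.60 to 6.57 alone and from 5.81 to 6.21 in co-culture, and for endothelium (5 genes) from 4.95 to 5.16 and from 4.79 to 5.08.

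Co-culture was set against growth alone to ask which complement genes differ in melanoma cells exposed to T cell factors. C1R, C1S, C1RL, C2, C3 and CFB had a higher signal in co-culture in all 3 lines, while CFD stayed within 0.34 log2 units of its level alone. The mean difference of the 6 genes ran from 1.97 for C2 to 5.14 for C1S on the log2 scale, which is 3.92-fold to 35.2-fold. With lines as replicates, limma called 0 of the 11 probe sets at an adjusted p of 0.05 (0.289% of 15910 tested probe sets were called higher), and the size of the difference varied widely between lines. At an unadjusted p under 0.05 in limma 10 of the 11 were higher (7.04% of all tested), which is 6 of the 7 genes. In RNA of a whole culture, more cells making a transcript and more transcript per cell cannot be told apart.

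**Figure D1:**
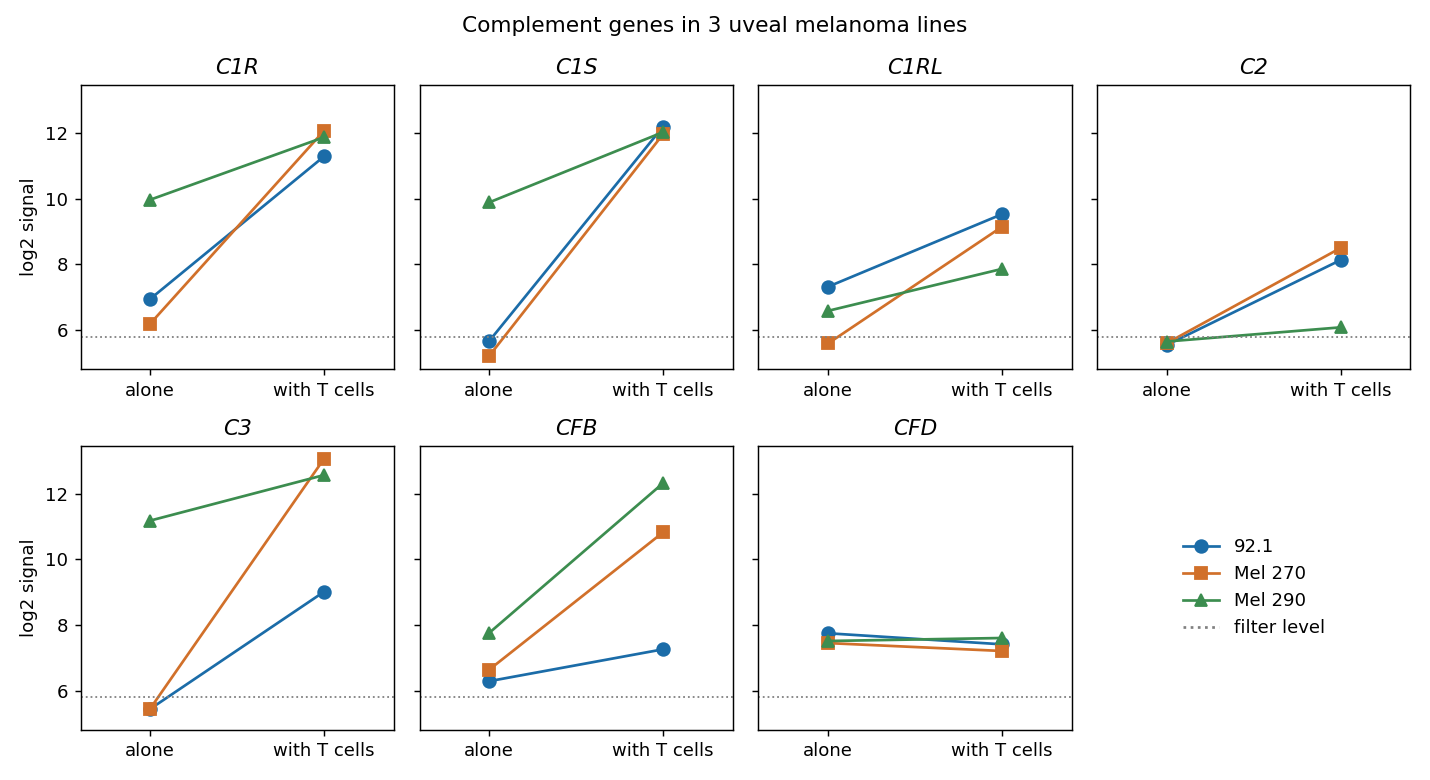
Log2 signal (y axis) of each gene alone and with T cells (x axis), 1 point per array, with a line joining the arrays of 1 cell line and the filter level of 5.80 dotted. C1R and C1S start far apart and end within 0.78 and 0.23 of each other across lines, C2 moves little in Mel 290, CFB moves least in 92.1, and CFD stays level. Signals are not comparable between genes.

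C1S encodes the protease that cleaves C4 and C2. Its log2 signal alone was 5.66 in 92.1, 5.21 in Mel 270 and 9.88 in Mel 290, and in co-culture it was 12.19, 11.96 and 12.02. Every co-culture value lay above every value alone. The lines differed by up to 4.67 alone and by at most 0.23 in co-culture, where the highest value on any array was 13.9. C1S was 92.2-fold higher in 92.1, 107-fold in Mel 270 and 4.40-fold in Mel 290, a mean log2 difference of 5.14 ± 2.60 (SD, n = 3 lines, SE 0.96, adjusted p = 0.094 in limma). In 92.1 and Mel 270 the level alone lay below 5.80, where signal may be mostly background. With low values raised to 5.80 these folds became 84.0 and 71.6.

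C1R, the protease that activates C1s, followed C1S closely. Alone it was 6.95 in 92.1, 6.20 in Mel 270 and 9.97 in Mel 290, and in co-culture it was 11.29, 12.07 and 11.87. The groups did not overlap, and the range between lines went from 3.77 alone to 0.78 in co-culture. All 6 values were above the filter level. The folds were 20.2, 58.6 and 3.74 in 92.1, Mel 270 and Mel 290, a mean log2 difference of 4.04 ± 2.00 (SD, n = 3 lines, SE 0.74, adjusted p = 0.093 in limma). Over the 6 arrays C1R and C1S correlated at r = 0.99, the highest of the 21 pairs of these genes, and the points share lines and conditions.

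C1RL encodes a protease related in sequence to C1r. Its signal alone was 7.32 in 92.1, 5.59 in Mel 270 and 6.59 in Mel 290, against 9.53, 9.14 and 7.86 in co-culture. Here too the groups did not overlap, but Mel 290 was the lowest line in co-culture, and the range between lines hardly moved (1.73 alone and 1.66 in co-culture). The log2 differences were 2.21, 3.55 and 1.28 in 92.1, Mel 270 and Mel 290. The level of Mel 270 alone lay below 5.80, and with it raised to 5.80 the difference there was 3.34. The mean was 2.34 ± 1.14 (SD, n = 3 lines, SE 0.43, adjusted p = 0.094 in limma).

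C2, the protease cleaved by C1s, was measured by 3 probe sets, of which 2 held identical values on all arrays and are 1 measurement, so counts over the 11 probe sets hold it 2 times and counts over the 7 genes do not. On the brighter probe set the signal alone was 5.55 in 92.1, 5.61 in Mel 270 and 5.65 in Mel 290, all below the filter level and within 0.10 of each other. In co-culture it was 8.14, 8.50 and 6.08, so 92.1 and Mel 270 stood apart from Mel 290. C2 was 6.00-fold, 7.45-fold and 1.35-fold higher, a mean log2 difference of 1.97 ± 1.34 (SD, n = 3 lines, SE 0.50, adjusted p = 0.14 in limma). With low values raised to 5.80 the mean was 1.78, and the value in Mel 290 was 0.29. The other C2 probe set gave 1.92 ± 1.24 (adjusted p = 0.13 in limma). The groups did not overlap on any C2 probe set, although in Mel 290 the margin was small. All 3 probe sets lay below 5.80 alone in every line and passed the filter only through co-culture. Their p-values and their place in the counts are therefore not independent of the filter.

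C3, the central component, showed the widest spread of responses. Its signal alone was 5.45 in 92.1, 5.46 in Mel 270 and 11.18 in Mel 290, and in co-culture 9.02, 13.07 and 12.57. Mel 290 alone was already above 92.1 in co-culture, so the groups overlapped. The log2 difference was 3.57 in 92.1, 7.60 in Mel 270 and 1.39 in Mel 290, which is 11.9-fold, 195-fold and 2.61-fold. With low values raised to 5.80 the first 2 were 9.31-fold and 154-fold. The mean was 4.19 ± 3.15 (SD, n = 3 lines, SE 1.16, 95% interval 1.21 to 7.16, adjusted p = 0.15 in limma).

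CFB, which supplies the protease of the alternative pathway, ordered the lines differently. On the brightest of its 3 probe sets the signal alone was 6.29 in 92.1, 6.64 in Mel 270 and 7.76 in Mel 290, and in co-culture 7.26, 10.82 and 12.32. The value of 92.1 in co-culture was below that of Mel 290 alone, so the groups overlapped. Unlike C1R and C1S, the lines lay further apart with T cells than without, with a range of 5.05 against 1.47. The folds were 1.96, 18.1 and 23.5 in 92.1, Mel 270 and Mel 290, a mean log2 difference of 3.24 ± 1.97 (SD, n = 3 lines, SE 0.73, adjusted p = 0.12 in limma). The other CFB probe sets had lower signals in 92.1 and Mel 270 alone, by up to 0.86, and gave means of 3.77 ± 2.04 and 3.86 ± 2.07 (adjusted p = 0.10 for both in limma), with 2.73-fold and 2.84-fold in 92.1. The size in 92.1 and Mel 270 therefore depends on the probe set, while the log2 difference in Mel 290 was 4.56 to 4.65 on all 3. The order of these lines changes with it: Mel 270 was at 4.18, below Mel 290, on the brightest probe set and at 5.27 and 5.42, above Mel 290, on the others.

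CFD, the protease that cleaves factor B, was 7.75 in 92.1, 7.45 in Mel 270 and 7.52 in Mel 290 alone, and 7.42, 7.21 and 7.61 in co-culture. The groups overlapped and no line moved by as much as 2-fold. The mean log2 difference was -0.16 ± 0.22 (SD, n = 3 lines, SE 0.14, adjusted p = 0.62 in limma), with a 95% interval from -0.53 to 0.21.

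**Figure D2:**
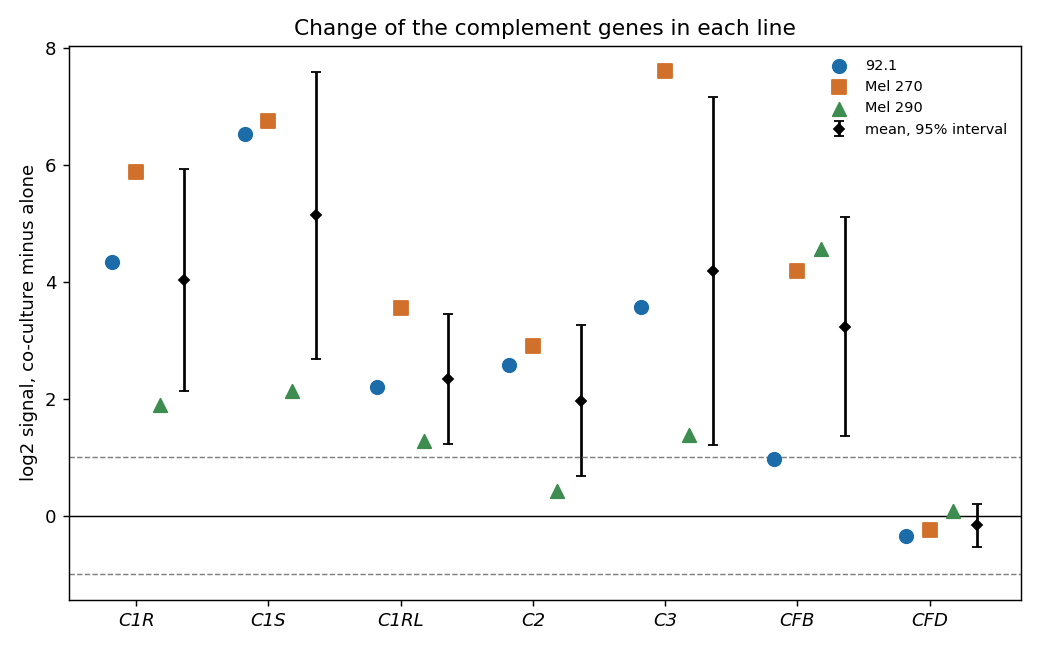
Log2 signal in co-culture minus alone (y axis) for each gene (x axis), 1 coloured point per line, with the limma mean and its 95% interval in black and dashed lines at 2-fold. Mel 290 has the smallest change in C1R, C1S, C1RL, C2 and C3. For CFB it has the largest on the probe set drawn, and Mel 270 has the largest on the other CFB probe sets.

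Because each line had 1 array per condition, its own response was described without a test. On the brightest probe set of each gene, 5 of 7 genes were at least 2-fold higher in 92.1, 6 in Mel 270 and 5 in Mel 290. Counted over probe sets this was 9 of 11 in 92.1 (3.82% of all tested), 10 in Mel 270 (5.29%) and 7 in Mel 290 (2.23%). The median log2 difference of the 7 genes was 2.59 in 92.1, 4.18 in Mel 270 and 1.39 in Mel 290, against -0.069, -0.062 and 0.0080 over all tested probe sets. In all 3 lines 10 of the 11 probe sets were higher (16.6% of all tested) and 6 were at least 2-fold higher (1.01%), which is 6 and 4 of the 7 genes. The groups did not overlap in 6 probe sets, those of the 4 genes C1R, C1S, C1RL and C2 (4.26% of all tested had all co-culture values above all values alone).

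The order of the genes differed between lines. Ranked by log2 difference among 15910 tested probe sets, C1S was at place 10, C1R at 45 and C3 at 76 in 92.1, where CFB came at 341 to 649. In Mel 270 C3 was at place 2, C1S at 8, C1R at 19 and CFB at 27 to 67. In Mel 290 CFB led at 32 to 35, ahead of C1S at 127, C1R at 147 and C3 at 212, and C2 stood at 1037 to 1289. These places rest on 1 array per condition, and several start from levels below the filter in the culture without T cells. These are the places of C1S and C3 in 92.1 and Mel 270, of C2 in all 3 lines, and of CFB at 341 in 92.1 and at 27 in Mel 270.

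The calls changed when single lines were left out. Without Mel 290, C1S (6.64, adjusted p = 0.018) and the C2 probe sets (2.63 and 2.74, adjusted p = 0.040 and 0.041) passed in limma, which made 4 of 11 probe sets, or 2 of 7 genes (0.396% of all tested were called higher). Without 92.1 the 3 CFB probe sets passed, with means of 4.37 to 5.03 and an adjusted p of 0.0091 (0.308% called higher), and without Mel 270 no probe set of these genes passed (0.49% called higher). Over all alternatives the adjusted p ran from 0.018 to 0.53 for C1S, from 0.040 to 0.72 for C2 and from 0.0091 to 0.83 for CFB.

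The level of each line, averaged over both conditions, was compared with the mean of the other 2 lines in the same limma fit. C3 was 3.62 higher in Mel 290 (11.87 against 8.25, adjusted p = 0.093 in limma) and differed by -3.33 in 92.1 (7.23 against 10.57, adjusted p = 0.14 in limma). CFB differed by 2.28 in Mel 290 (10.04 against 7.76, adjusted p = 0.093 in limma) and by -2.61 in 92.1 (6.78 against 9.39, adjusted p = 0.088 in limma). C1S and C1R differed by 2.20 and 1.79 in Mel 290 (adjusted p = 0.18 and 0.17 in limma). None of 21 gene and line contrasts passed over all probe sets at an adjusted p under 0.05. Over all tested probe sets 14.5% were called for 92.1, 13.2% for Mel 270 and 25% for Mel 290. The spread used here holds the unequal responses described above, not repeat cultures.

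**Figure D3:**
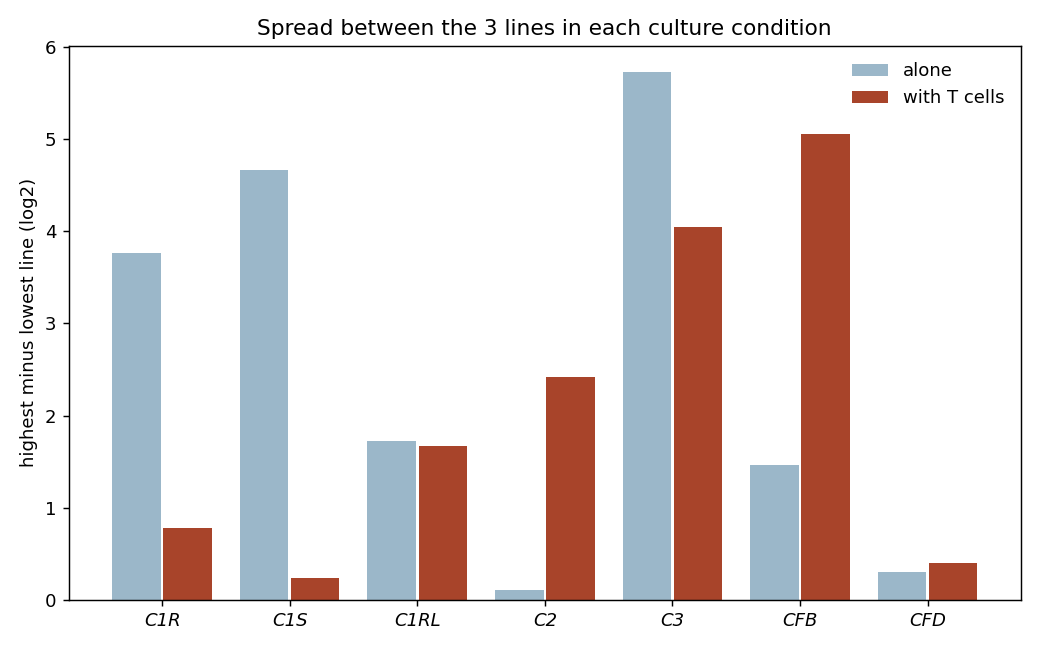
Highest minus lowest line (y axis, log2 signal) for each gene (x axis), alone and with T cells. The bars shrink from 4.67 to 0.23 for C1S and from 3.77 to 0.78 for C1R, and grow from 1.47 to 5.05 for CFB and from 0.10 to 2.42 for C2.

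Genes with the most similar pattern over the 6 arrays were looked up among 4650 variable probe sets with 1 symbol, by Pearson correlation and as a description. For C1R and C1S the first place was SOD2, the mitochondrial superoxide dismutase (r = 0.997 and 0.993), followed by CTSO and HLA-L for C1R (0.991 and 0.989) and by APOL6 and CTSO for C1S (0.991 and 0.986). C2 was closest to IRF2, an interferon regulatory factor (0.998), RND1 (0.995) and the transcription factor gene CEBPD (0.992). Like C2, CEBPD was 2.65, 3.05 and 0.65 higher in 92.1, Mel 270 and Mel 290. CFB was closest to ST3GAL1 (0.992), the cytokine gene IL6 (0.984) and NNMT (0.974), and IL6 was 0.39, 3.48 and 5.14 higher in the same order. IL6 lay below 5.80 alone in all 3 lines (5.39, 5.19 and 5.77) and in 92.1 in co-culture (5.78). Its difference in 92.1 is therefore wholly below the filter level. C3 was closest to ORMDL3 (0.992), VAMP1 (0.992) and PPP4R1L (0.989), C1RL to TRAF3 (0.998), MOV10 (0.973) and BRPF3 (0.967), and CFD to 2 probe sets of EIF1AX (0.970 and 0.969) and to APOBEC3B (0.966). The points of each correlation share lines and conditions.

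Other complement genes differed less, with SERPING1 as the largest exception. Of 47 listed genes 5 had no probe set under their symbol alone and are not in these counts (2 of them, C4A and C4B, share probe sets described further on), 23 lay below the filter level on average and 19 were tested. None of the 19 passed over all probe sets in limma, and 3 were higher (7.04% of all tested) and 1 lower (12.4%) at an unadjusted p under 0.05, with a median difference of 0.026 (all tested probe sets, -0.035). SERPING1, the C1 inhibitor that shuts off C1r and C1s, was 6.35, 5.60 and 6.14 alone and 8.58, 8.22 and 10.79 in co-culture in 92.1, Mel 270 and Mel 290. Its groups did not overlap, and its mean log2 difference was 3.17 ± 1.30 (SD, n = 3 lines, adjusted p = 0.080 in limma). CLU, an inhibitor of the terminal complex, differed by 0.99 ± 0.94 (adjusted p = 0.24) and CD59, which blocks pore formation, by 0.63 ± 0.50 (adjusted p = 0.21 in limma). Among the 19 tested genes, the largest differences downward were those of the C1q-binding protein gene C1QBP (-0.86 ± 0.33, adjusted p = 0.098), VTN (-0.30 ± 0.12, adjusted p = 0.29) and CPN2 (-0.12 ± 0.35, adjusted p = 0.78 in limma). C5, below the filter level on average and not tested, differed by -1.30.

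The partners of the 7 genes in the cascade were looked at in turn. C1QA, which recognises targets for C1r and C1s, stayed between 5.08 and 5.27 on all arrays, below the filter level, C1QC differed by 0.016 ± 0.11, and C1QB by 0.34 ± 0.56, almost all of it in Mel 270. The lectin-side proteases MASP1 and MASP2 averaged below the filter level. Properdin, encoded by CFP, differed by -0.036 ± 0.36. C4, the other substrate of C1s, was measured by 3 probe sets with identical values that list C4A, C4B and C4B_2 together. They were 5.80, 6.15 and 7.35 alone and 7.48, 10.82 and 10.19 in co-culture in 92.1, Mel 270 and Mel 290. The groups did not overlap, and the mean log2 difference was 3.06 ± 1.51 (SD, n = 3 lines, adjusted p = 0.094 in limma). Of 7 terminal pathway genes 6 averaged below the filter level, and C8G, the other, differed by 0.028 ± 0.20.

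Signalling genes listed as regulators of complement transcription were also measured. The list holds receptors, kinases, a cytokine and feedback inhibitors as well as transcription factors. Of 24 tested regulators 3 were called higher in limma (0.289% of all tested) and none lower, 18 were higher at an unadjusted p under 0.05 (7.04%), and the median difference was 1.25. IRF1, a transcription factor induced by interferon-gamma, rose by 4.75 ± 0.42 (SD, n = 3 lines, adjusted p = 0.0053 in limma), from 5.56, 6.17 and 6.45 to 10.79, 10.68 and 10.96 in 92.1, Mel 270 and Mel 290. JAK2, a kinase of the interferon-gamma receptor, rose by 2.07 ± 0.23 (adjusted p = 0.018), and TNFAIP3, a feedback inhibitor of NF-kappaB, rose by 4.09 ± 1.01 (adjusted p = 0.046 in limma). IRF1 was called under every alternative run (adjusted p = 0.0035 to 0.036), while JAK2 was not called without 92.1 or without Mel 290 (adjusted p = 0.063 for both) or without the cell line block (0.49). TNFAIP3 was not called without 92.1 (adjusted p = 0.079), with no filter (0.0503), after cyclic loess (0.077) or without the block (0.11 in limma). NFKBIA (3.37 ± 1.26, adjusted p = 0.075), IL6 (3.00 ± 2.41, adjusted p = 0.17) and CEBPD (2.12 ± 1.29, adjusted p = 0.12 in limma) did not pass. IL6R alone had a mean below 0 (-0.20 ± 0.63, adjusted p = 0.76 in limma). By side, 2 of 8 interferon-gamma genes, 1 of 8 NF-kappaB genes and 0 of 8 IL-6 and C/EBP genes passed in limma (5, 7 and 6 at an unadjusted p under 0.05), with medians of 0.79, 1.53 and 1.21. Across lines in co-culture RELB ended within 0.24, IRF9 within 0.25 and IRF1 within 0.28, next to 0.23 for C1S. These were the 3 smallest ranges of the 24 tested regulators, picked after the ranges were seen. The share of all tested probe sets with so small a range was not computed, and a link to C1S was not tested. Alone, their ranges were 0.090, 1.13 and 0.89, against 4.67 for C1S, so the range of RELB was wider in co-culture. IL6 in co-culture ran from 5.78 in 92.1 to 10.91 in Mel 290, and alone it lay below 5.80 in all 3 lines.

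**Figure D4:**
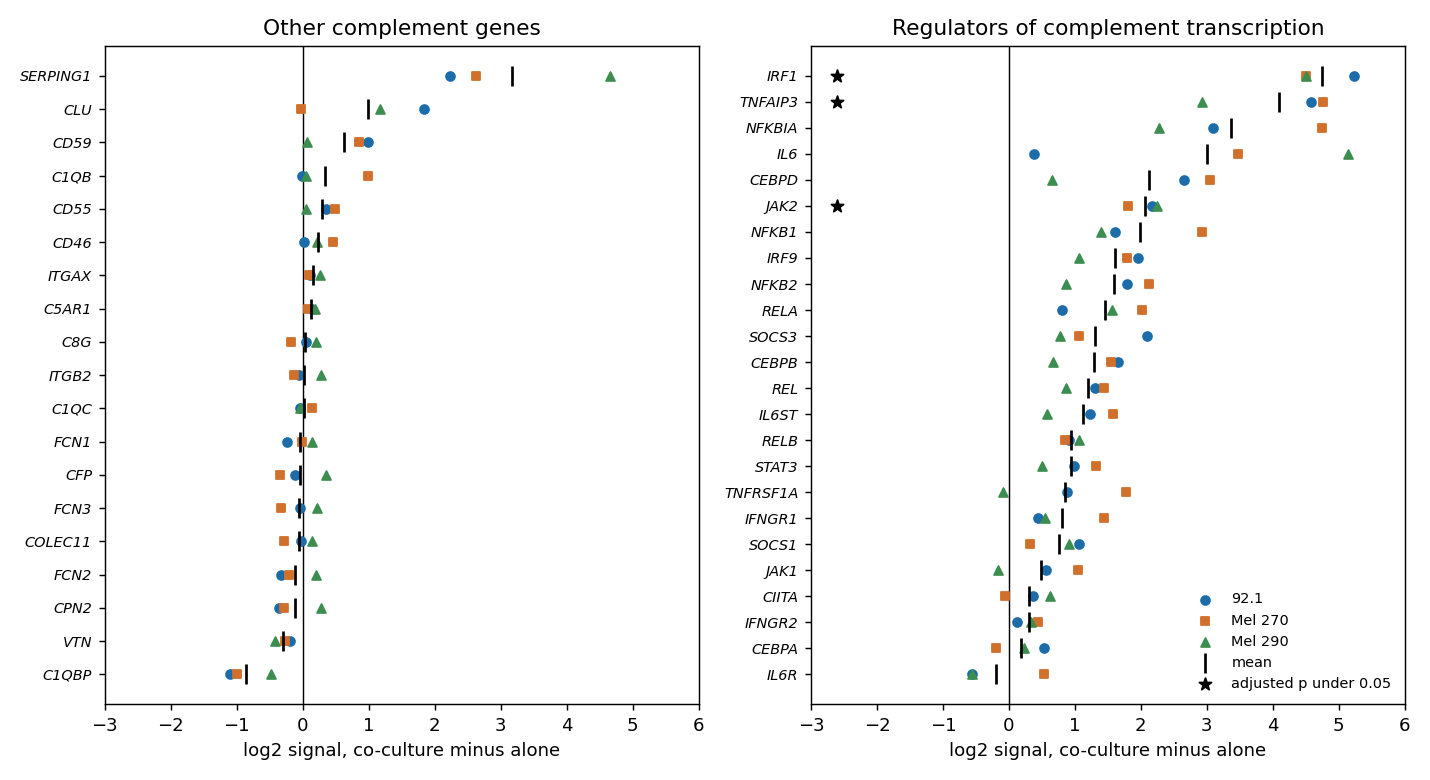
Log2 signal in co-culture minus alone (x axis) for tested genes of the complement list (left) and of its regulators (right), with 1 coloured point per line, a bar at the mean and a star for an adjusted p under 0.05. SERPING1 stands apart on the left, and IRF1, TNFAIP3 and JAK2 carry stars on the right.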

How the data were processed

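Total RNA of 6 samples was measured on Affymetrix arrays. The deposited values are log2 signals made with Affymetrix Expression Console 1.2.0.20, per the submitters' processing notes. How probes were background-corrected, summarized and normalized is not given in the sources used here. Array medians lay between 6.63 and 6.69, so the values were used as deposited.

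Of 33297 probe sets, 21214 are listed in the array annotation. The 15910 with a mean over the 6 arrays at or above the 25th percentile (5.80) were tested. This left in all 11 probe sets of the members. The 3 C2 probe sets passed this filter only through their co-culture values, since each lay below 5.80 on every array alone. Symbols were updated by gene ID through RefSeq (19433 of 19460 with 1 symbol matched). limma 3.58.1 in R 4.3.3 was fitted with cell line as a block, since each line stands in both groups, leaving 2 residual degrees of freedom and a prior worth 3.01. Adjusted p-values are Benjamini-Hochberg values over the whole table of tested probe sets. The code was tested on simulated data. Probe sets rather than genes were tested so that each probe set of a gene is kept; for lists the brightest probe set of a gene was used.

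The members and lists were chosen with earlier results of these data known. Named were all members, list genes past the threshold, the 3 largest other differences in each direction, and the 3 most correlated genes. Alternatives were other filters, normalizations, moderation, table rows, no block, and leaving out each line. Precision is limited by the number of arrays.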

Additional observations from a re-analysis of the deposited data

Results flagged for a closer look

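CFD did not move the same way in all lines. Its log2 signal in co-culture minus alone was -0.34 in 92.1, -0.24 in Mel 270 and 0.091 in Mel 290. The difference between lines was not tested, since each line had 1 array per condition, and all 3 values are under 2-fold.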

How the results depend on the processing

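No member changed direction in 125 refits of its mean difference, and 118 kept their side of the threshold. The other 7 were calls gained when a line was left out. The count of called member probe sets, 0 in limma, stayed 0 under both other filters, quantile and cyclic loess normalization and raised low values. It also stayed 0 with an intensity trend, both other tables and no replicate block. With a line left out it ran from 0 to 4. At the median filter the 3 C2 probe sets were not tested, so they could not be called. The table with 1 probe set per gene held only the brightest of C2 and of CFB. Among regulators, 3 were called, 1 without the replicate block, and 2 to 4 with a line left out. Other complement genes gave 0 and line levels 0 under every alternative run. Line values at least 2-fold higher numbered 26 of 33, and 26 to 27 under other scaling or with low values raised. The level of 5.80 is a percentile of probe set means, and background itself was not measured. Levels below it, as those of C2 alone, may be mostly background and are not relied on as measured levels.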

Other observations

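Few genes showed the pattern of C1S and C1R, whose signals differed widely between lines alone and hardly in co-culture. With limits chosen after seeing the data, 561 of 15910 tested probe sets had lines at least 3 log2 units apart alone, 3 of them probe sets of the complement genes above (C1R, C1S and C3). Of these 561, 10 had lines within 1 unit of each other in co-culture and all co-culture values above the mean alone. Besides C1S and C1R they were ANTXR1, LGALS3BP, APOL6, IFIH1, SOD2 and 3 probe sets that list HLA-B and HLA-C together. APOL6 was 4.75, 5.01 and 7.84 alone and 10.41, 10.41 and 10.23 in co-culture in 92.1, Mel 270 and Mel 290. IFIH1, a cytosolic RNA sensor, was 4.58, 6.73 and 7.63 alone and 9.96, 10.07 and 10.13 in co-culture. Levels alone lay below 5.80 for C1S and APOL6 in 92.1 and Mel 270. The same held for IFIH1 in 92.1 and for ANTXR1 in Mel 270. The ranges alone of APOL6 and IFIH1 (3.09 and 3.05) pass the limit with such values, and were not recomputed with low values raised.

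Some complement genes below the filter level, chosen after their values were seen, were apart from their level alone in some or all lines. C5 was lower in all 3 lines, at 5.87, 5.85 and 6.67 alone and 5.50, 4.14 and 4.85 in co-culture in 92.1, Mel 270 and Mel 290. CFI, the protease that inactivates C3b, was 3.81 alone and 6.46 in co-culture in 92.1, and stayed below 4.50 in the other lines. C3AR1, the receptor for the C3a fragment, was 5.09 alone and 7.49 in co-culture in Mel 290.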
